A study of Mus musculus with 95 samples.

Results

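The clustered protocadherins are neuronal adhesion proteins encoded side by side in 3 gene clusters, alpha, beta and gamma. Every gene whose mouse symbol starts with Pcdha, Pcdhb or Pcdhg was taken as a member, which gave 24 genes of the 39179 in the count table: 1 alpha row, 22 beta genes and 1 gamma row. Their messenger RNA was measured by sequencing in striatum, cortex and liver of 6-month-old mice of the zQ175 family, in which an expanded CAG repeat sits in Htt, the gene of Huntington's disease. There were 95 libraries from 32 animals. In all, 4 genotype groups were used, all on the C57BL6/J background: heterozygous Z_Q175 (neo-) KI mice (strain CHDI-81003019, without the neo selection cassette, called neo-out Het here) with their wild-type littermates (neo-out WT), and heterozygous z_Q175 KI mice (strain CHDI-81003003, with the cassette, called neo-in Het) with theirs (neo-in WT). Each group held 8 animals, 4 males and 4 females, except in the neo-out Het striatum, where 7 libraries were used because male replicate 1 was not analysed here. The CAG repeat number was 179 to 208 in neo-out Het mice and 181 to 200 in neo-in Het mice. The repeat sits in the animals' own Htt gene, so no transgene promoter is involved, and the bulk tissues mix all their cell types.

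Clustered protocadherins are transmembrane proteins of the cadherin superfamily, and a neuron makes only some of them. Alpha and gamma genes each contribute a variable first exon that is spliced to constant exons shared by the whole cluster, whereas beta genes lie mostly in single exons of their own. A promoter is chosen in each cell with the help of CTCF and cohesin, proteins that fold chromatin into loops, and unchosen promoters carry DNA methylation. Matching sets of these proteins on touching membranes let a neuron tell its own branches from those of others, and the gamma cluster is known for supporting self-avoidance and survival of neurons.

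In GENCODE M21 (GRCm38, the assembly of mm10) the 3 clusters lie on the plus strand of chromosome 18. The alpha cluster runs from 36930184 to 37187661, the beta cluster from 37264938 to 37524479 and the gamma cluster from 37661793 to 37841873. The annotation lists 14 alpha, 22 beta and 22 gamma genes, and 34 of these 58, namely 13 alpha and 21 gamma genes, had no row in the count table and were not analysed here, among them the C-type genes Pcdhac1, Pcdhac2, Pcdhgc3 and Pcdhgc5. The alpha row (ENSMUSG00000007440) is named Pcdha11 and spans 37005203 to 37187657, and the gamma row (ENSMUSG00000023036) is named Pcdhgc4 and spans 37815079 to 37841873. Both spans end with the constant exons that other members of the cluster share. The annotation used for counting is not given in the sources used here, so whether these rows hold 1 variable gene or reads of a whole cluster is not known. They are called the alpha row and the gamma row here. Of their values above 1 count, 82.9% and 92.6% were not whole numbers, so reads had been shared out between features. Each of the 22 beta genes had its own row, in the order Pcdhb1 to Pcdhb22 along the chromosome.

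Expected counts per library summed to 31.1 to 43.05 M in striatum, 31.02 to 43.99 M in cortex and 33.12 to 68.36 M in liver. Htt itself was measured in CPM (counts scaled to library size, after TMM scaling). It had 159 to 177 CPM (median 163) in neo-out Het striatum against 154 to 204 CPM (median 201) in neo-out WT. In neo-in it had 120 to 169 CPM (median 152) in Het against 186 to 206 CPM (median 197) in WT. The summed CPM of 7 medium spiny neuron markers (Ppp1r1b, Adora2a, Drd1, Drd2, Penk, Tac1 and Rgs9) was 1977 to 2571 in neo-out Het striatum, 3512 to 4247 in neo-out WT, 2244 to 2517 in neo-in Het and 3837 to 4772 in neo-in WT, and at most 419 in any cortex library. These neurons are the projection neurons of the striatum, and 6 of the 7 genes fell in striatum in each line. In cortex 6 of the 7 fell in neo-in and 1 in neo-out, where 1.25% and 1.98% of all genes fell. Cortical sums were 113 to 143 CPM in neo-in Het and 132 to 419 CPM (median 181) in neo-in WT. In neo-out cortex they were 109 to 153 CPM in Het and 138 to 205 CPM in WT. In bulk tissue, fewer cells of a type and less RNA per cell cannot be told apart. A set of 4 striatum libraries, 3 neo-out WT and 1 neo-in WT, stood apart, with Slc17a7 (a cortical excitatory neuron gene) above 5 times or Ttr (a choroid plexus gene) above 10 times the striatal median. For Het against wild type in striatum, the count of members called, the calls lost and the correlations across beta genes are also given without them. The striatal levels, fold changes and p-values below include them unless stated. Cortex libraries were not screened in this way. Their summed choroid plexus markers reached 670 CPM in neo-in Het and 1677 CPM in neo-out WT.

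Level was compared in FPKM (fragments per unit of gene length and depth), which corrects for gene length. The gamma row, the sum of the 22 beta genes and the alpha row differed widely. What the alpha and gamma rows hold is not known, so these are not levels of 3 whole clusters. In wild-type striatum the gamma row averaged 134 ± 3.32 FPKM in neo-out and 138 ± 7.73 FPKM in neo-in mice (SD, n = 8 each), the 22 beta genes summed to 40.2 ± 2.13 and 40.3 ± 1.51 FPKM, and the alpha row averaged 21.96 ± 0.423 and 21.71 ± 1.03 FPKM. In wild-type cortex the gamma row was at 130 ± 4.63 and 129 ± 4.89 FPKM, the beta sum at 37.9 ± 2.38 and 38.0 ± 1.72 FPKM, and the alpha row at 38.8 ± 1.59 and 37.0 ± 2.68 FPKM. The gamma row was thus the most abundant in both brain tissues, and the alpha row was near the beta sum in cortex and well below it in striatum. Liver held little of each, with 3.29 ± 0.667 and 2.93 ± 0.854 FPKM for the gamma row, 0.792 ± 0.180 and 0.573 ± 0.161 FPKM for the beta sum, and at most 0.0246 FPKM for the alpha row in any library.

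Within the beta cluster a few genes supplied much of the total. In wild-type striatum Pcdhb17 averaged 5.01 FPKM, or 12.5% of the beta sum, followed by Pcdhb20 at 4.25 FPKM (10.6%), Pcdhb9 at 3.61 FPKM (8.96%) and Pcdhb14 at 3.26 FPKM (8.11%), over 16 libraries. Pcdhb17 also led in cortex with 4.76 FPKM (12.5%), ahead of Pcdhb9 at 4.01 FPKM (10.6%) and Pcdhb20 at 3.62 FPKM (9.55%), and it led in liver with 0.107 FPKM. Pcdhb1, the first gene of the cluster, was the lowest in both brain tissues, with 0.135 FPKM in striatum and 0.0318 FPKM in cortex. The 3 leading genes were the same in striatum and cortex, and those named as leading lie in the middle and later stretches of the cluster.

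**Figure D1:**
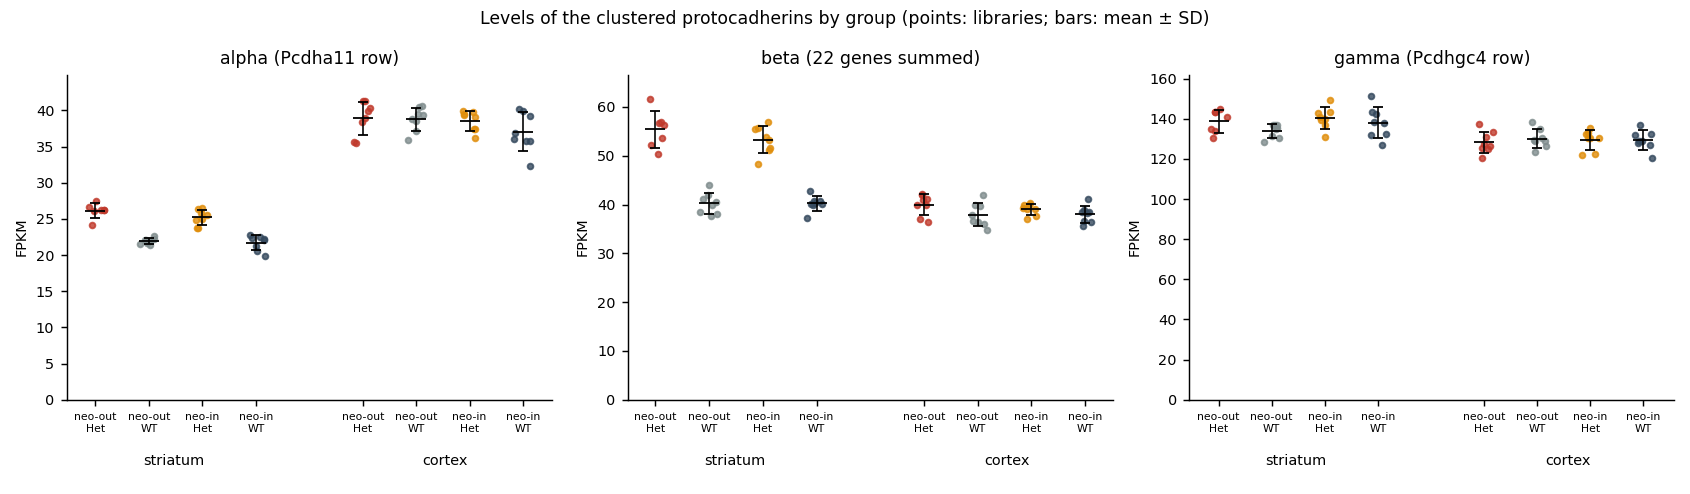
FPKM of the alpha row, of the 22 beta genes summed and of the gamma row (y axes, linear, from 0) in each line and genotype, with striatum on the left and cortex on the right of each panel. Points are libraries and bars the mean ± SD; striatal beta sums are 50.3 to 61.5 FPKM in neo-out Het and 37.8 to 43.9 FPKM in neo-out WT mice, and cortical groups overlap.

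The first comparison asked whether the members differed between Het and wild-type striatum. The beta cluster and the alpha row were higher in Het striatum in both lines, and the gamma row did not pass the test in either. In neo-out mice 18 of the 24 members rose and 0 fell, of which 17 were beta genes, where 8.72% of the 17703 genes tested rose and 9.28% fell (edgeR quasi-likelihood test, Benjamini-Hochberg adjusted p below 0.05). In neo-in mice 16 of the 24 rose and 0 fell, of which 15 were beta genes, where 8.75% of all genes rose and 10.7% fell. All 24 members passed the count filter in striatum. The median log2 fold change of the 22 beta genes was 0.44 in neo-out (range -0.02 to 0.79) and 0.35 in neo-in (range -0.13 to 0.72), beside a median of 0.009 over all genes in each line.

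The summed beta level shows the size of the change. It was lowest at 50.3, median 56.3 and highest 61.5 FPKM in neo-out Het striatum, against 37.8, 40.2 and 43.9 FPKM in neo-out WT. In neo-in Het striatum it was lowest at 48.4, median 53.5 and highest 56.9 FPKM, against 37.2, 40.3 and 42.8 FPKM in neo-in WT. Every Het library lay above every wild-type library in both lines, and the ratio of the FPKM means was 1.38 in neo-out and 1.32 in neo-in. On FPKM the median log2 change of all genes was 0.043 in neo-out and 0.054 in neo-in, against 0.009 on TMM-scaled counts. On that count scale the mean beta sums were 196 CPM in neo-out Het against 144 in WT, and 187 CPM in neo-in Het against 146 in WT. The rise of 15.2 FPKM in neo-out and 13 FPKM in neo-in was shared among many genes: Pcdhb9 supplied 13.2% and 15.6% of it, Pcdhb20 9.03% and 8.71%, Pcdhb17 8.32% and 11.5%, Pcdhb12 7.43% and 10.2%, and Pcdhb13 7.30% and 7.77%.

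Pcdhb9 had 14.0, 17.3 and 21 CPM (lowest, median and highest) in neo-out Het striatum, against 10.2, 11.2 and 13 CPM in neo-out WT. In neo-in Het striatum Pcdhb9 had 15.8, 16.5 and 17.2 CPM, against 9.29, 11.1 and 11.8 CPM in neo-in WT. The groups did not overlap in either line, and the log2 fold changes were 0.58 ± 0.07 (SE, edgeR adjusted p = 1.24e-07) in neo-out and 0.61 ± 0.06 (adjusted p = 2.17e-08) in neo-in.

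Pcdhb13 was just as separate. It had 9.67, 10.3 and 12.3 CPM in neo-out Het striatum, against 5.53, 6.56 and 8.05 CPM in neo-out WT, and 9.23, 9.55 and 12.1 CPM in neo-in Het, against 6.22, 6.36 and 7.21 CPM in neo-in WT. Its log2 fold changes were 0.67 ± 0.07 (edgeR adjusted p = 1.13e-07) and 0.61 ± 0.07 (adjusted p = 2.91e-07). Pcdhb3, near the start of the cluster, had 6.78, 7.64 and 8.80 CPM in neo-out Het striatum, against 3.53, 4.60 and 5.18 CPM in neo-out WT, with no overlap. In neo-in Het striatum Pcdhb3 had 5.64, 6.08 and 8.95 CPM, against 3.34, 4.76 and 5.25 CPM in neo-in WT, again with no overlap. The changes of Pcdhb3 were 0.79 ± 0.10 (edgeR adjusted p = 7.52e-07), the largest of any member in neo-out, and 0.52 ± 0.10 (adjusted p = 0.00017) in neo-in.

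Pcdhb12 had 9.13, 9.75 and 11.4 CPM in neo-out Het striatum, against 5.37, 6.70 and 7.68 CPM in neo-out WT, and 6.83, 10 and 10.7 CPM in neo-in Het, against 4.88, 5.91 and 6.69 CPM in neo-in WT. Its change of 0.72 ± 0.09 (edgeR adjusted p = 3.3e-07) was the largest in neo-in, and it was 0.57 ± 0.09 (adjusted p = 2.15e-05) in neo-out. Pcdhb12 has the least sequence of its own among the beta genes, so its level is uncertain. In its M21 transcripts 35.8% of the 50-base words occur in no other gene, against 88.7% to 100% in the other beta genes. Only 12% of its words occur in another beta gene, so most of the shared words are shared with genes outside the beta cluster. Reads of other beta genes had been shared out as well. Of values above 1 count, 71.4% were not whole in Pcdhb12. The share was 68.4% to 73.4% in Pcdhb7, Pcdhb9, Pcdhb10, Pcdhb11, Pcdhb17 and Pcdhb20, and at most 55.9% in the remaining beta genes. Pcdhb21 and Pcdhb22, the last pair, overlap by 455 bases on the same strand, so their counts are not fully separable either.

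Pcdhb19 had 14.8, 16.4 and 17.5 CPM in neo-out Het striatum, against 7.93, 10.6 and 11.8 CPM in neo-out WT, without overlap. In neo-in Het striatum it had 11.8, 14.4 and 15.5 CPM, against 10.3, 11.2 and 12 CPM in neo-in WT, where the lowest Het library fell inside the wild-type range. Its log2 fold change was 0.70 ± 0.07 in neo-out (edgeR adjusted p = 2.27e-08) and 0.33 ± 0.07 in neo-in (adjusted p = 0.000916). The difference between these effects, 0.37 ± 0.10, had an unadjusted p of 0.000773 and did not pass after adjustment over all genes (edgeR adjusted p = 0.726).

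Pcdhb17, the most abundant beta gene, rose by 0.28 ± 0.04 in neo-out (edgeR adjusted p = 1.25e-05) and 0.34 ± 0.04 in neo-in (adjusted p = 3.87e-07). It had 19.4, 20.6 and 22.3 CPM in neo-out Het striatum, against 15.1, 16.8 and 19.0 CPM in neo-out WT, and 19.0, 20.4 and 22.1 CPM in neo-in Het, against 15.1, 16.4 and 17.6 CPM in neo-in WT. The groups did not overlap in either line, although the change was smaller in log2 terms than that of Pcdhb9 or Pcdhb13. Pcdhb20 rose by 0.36 ± 0.05 (edgeR adjusted p = 8.48e-06) and 0.28 ± 0.05 (adjusted p = 0.000116). Pcdhb16 rose by 0.60 ± 0.08 in neo-out, where Het libraries had 11.4, 12.9 and 16.3 CPM against 7.70, 8.90 and 10 CPM in WT (edgeR adjusted p = 2.51e-06), and by 0.40 ± 0.08 in neo-in (adjusted p = 0.000419). Pcdhb22, the last gene of the cluster, rose by 0.57 ± 0.10 (edgeR adjusted p = 0.000121) and 0.47 ± 0.10 (adjusted p = 0.000725). Among the rest, Pcdhb2, Pcdhb4, Pcdhb5, Pcdhb7, Pcdhb15 and Pcdhb21 also rose in both lines, by 0.31 to 0.77 in neo-out and 0.34 to 0.52 in neo-in.

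There were 5 beta genes that passed the test in neither line. Pcdhb8 had 1.95, 2.86 and 3.98 CPM in neo-out Het striatum, against 1.94, 3.15 and 3.47 CPM in neo-out WT, and 1.90, 2.66 and 3.77 CPM in neo-in Het, against 1.49, 3.18 and 3.92 CPM in neo-in WT. The ranges of Pcdhb8 covered each other, with log2 fold changes of -0.02 ± 0.15 (edgeR adjusted p = 0.956) and -0.13 ± 0.14 (adjusted p = 0.592). Pcdhb14, the fourth most abundant beta gene of striatum, gave 0.06 ± 0.07 (edgeR adjusted p = 0.636) and 0.09 ± 0.07 (adjusted p = 0.384), which leaves room for only a small change. Pcdhb10 gave 0.26 ± 0.10 (edgeR adjusted p = 0.057) and 0.23 ± 0.09 (adjusted p = 0.0843), and Pcdhb11 0.28 ± 0.11 (adjusted p = 0.0773) and 0.12 ± 0.11 (adjusted p = 0.499). Pcdhb1, at 0.209 to 0.629 CPM in neo-out Het and 0.176 to 0.589 CPM in neo-out WT, was too low for a firm value, with 0.33 ± 0.30 and 0.21 ± 0.28. Pcdhb6 and Pcdhb18 rose in neo-out alone, by 0.35 ± 0.10 (edgeR adjusted p = 0.0154) and 0.28 ± 0.07 (adjusted p = 0.00311), against 0.16 ± 0.10 and 0.10 ± 0.06 in neo-in, and the test of that difference between lines called no member.

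**Figure D2:**
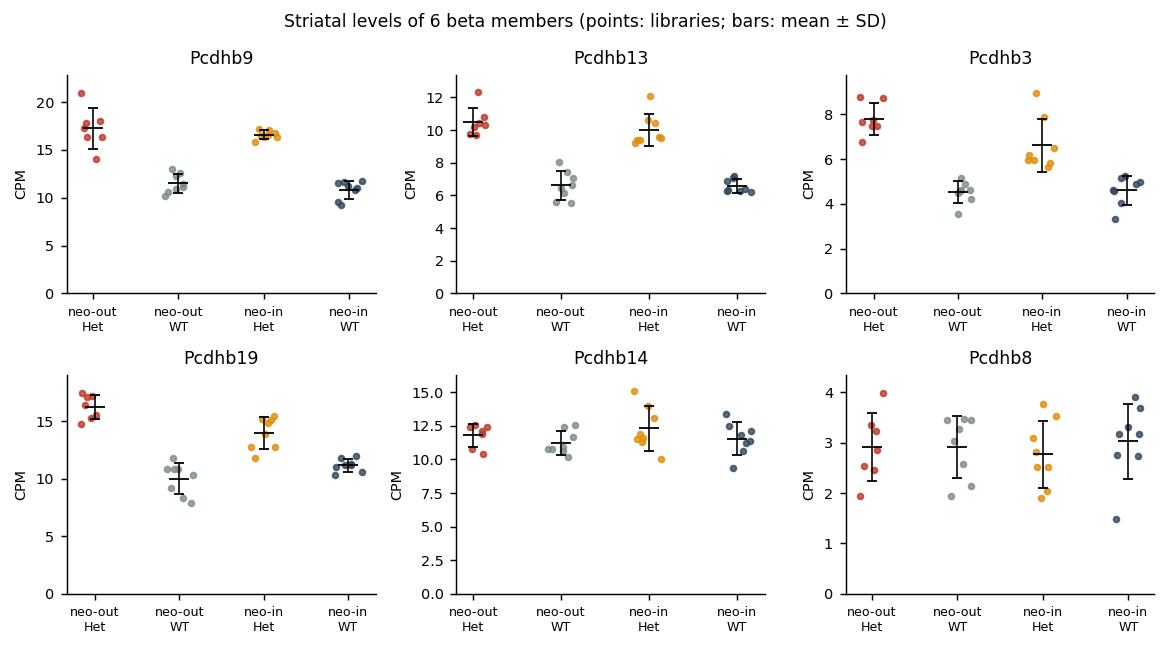
CPM (y axes, linear, from 0) of 6 beta genes in striatum, with neo-out Het, neo-out WT, neo-in Het and neo-in WT from left to right; points are libraries and bars the mean ± SD. Het libraries lie above wild-type libraries in Pcdhb9, Pcdhb13 and Pcdhb3 in both lines, and the groups overlap in Pcdhb14 and Pcdhb8.

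The alpha row rose by less. It had 121, 133 and 137 CPM in neo-out Het striatum, against 110, 114 and 116 CPM in neo-out WT, and 118, 126 and 136 CPM in neo-in Het, against 105, 113 and 119 CPM in neo-in WT. The groups were apart in neo-out and touched in neo-in, and the log2 fold changes of Pcdha11 were 0.21 ± 0.03 (edgeR adjusted p = 2.42e-05) and 0.16 ± 0.03 (adjusted p = 0.000427). On the opposite strand, Gm10545 and Gm10544 overlap the span of the alpha row, and whether the libraries keep strand is not stated. The gamma row had 615, 653 and 676 CPM in neo-out Het striatum, against 619, 645 and 659 CPM in neo-out WT, and 612, 648 and 697 CPM in neo-in Het, against 601, 664 and 747 CPM in neo-in WT. These ranges overlapped throughout, and with changes of 0.01 ± 0.03 (edgeR adjusted p = 0.923) and -0.03 ± 0.03 (adjusted p = 0.631) the Pcdhgc4 row, deeply counted as it is, leaves little room for a change like that of the beta genes. In FPKM its neo-in mean was 140.5 in Het and 138.1 in WT striatum, so the sign of this small difference depends on the scale.

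Separation of the groups and the values by sex draw on the same libraries as the tests, so they are not separate evidence. All Het libraries lay above all wild-type libraries in 14 of the 24 members in neo-out, where this held for 1.69% of all genes tested, and in 8 of 24 in neo-in, where it held for 1.54%. The 8 in neo-in were Pcdhb3, Pcdhb7, Pcdhb9, Pcdhb12, Pcdhb13, Pcdhb15, Pcdhb17 and Pcdhb20, and no member had all Het libraries below. Taken by sex, the median beta log2 difference in neo-out was 0.45 in females and 0.47 in males, with 21 and 22 of 22 genes above 0. In neo-in it was 0.38 in females and 0.31 in males, with 21 and 20 of 22 above 0.

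Without the 4 striatum libraries that stood apart, 17 members rose in neo-out and 16 in neo-in, and Pcdhb6 was the call lost (0.30 ± 0.12, edgeR adjusted p = 0.101). The liver clock-gene score of the animals, a measure of time of day, was -2.21 to 1.94 in neo-out Het and -4.81 to -1.88 in neo-out WT mice. In neo-in it was -1.16 to 3.32 in Het and -0.22 to 3.31 in WT mice. The neo-out genotypes thus hardly overlapped in score, so score and genotype cannot be well told apart in that line. With the score as a covariate 13 members rose in neo-out, against 16 in neo-in. The calls lost in neo-out were those of Pcdhb2 (0.49 ± 0.23), Pcdhb4 (0.50 ± 0.19), Pcdhb6 (0.41 ± 0.17), Pcdhb7 (0.34 ± 0.13) and Pcdhb15 (0.23 ± 0.13), with edgeR adjusted p of 0.112 to 0.338. Without the covariate these changes were 0.77, 0.63, 0.35, 0.31 and 0.33, in the same order. With it the change was thus smaller for Pcdhb2, Pcdhb4 and Pcdhb15 and larger for Pcdhb6 and Pcdhb7. The SE of each was larger than without the covariate. Over all genes the calls in neo-out came to 433 higher and 800 lower with it, against 1543 and 1643 without. Pcdhb6 in neo-out was also lost without Het male replicate 2 (0.31 ± 0.11, adjusted p = 0.0568), and Pcdhb4 in neo-in without Het male replicate 3, WT male replicate 2 or WT male replicate 4 (edgeR adjusted p = 0.0504 to 0.0511).

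Position within the beta cluster was compared next. Along the chromosome the effect went up and down with no steady trend. Genes 1 to 7 had a median log2 fold change of 0.53 in neo-out and 0.35 in neo-in, genes 8 to 15 had 0.31 and 0.29, and genes 16 to 22 had 0.57 and 0.34. Across the 22 genes, Spearman's rho between position and the striatal Het effect was -0.06 in neo-out and -0.04 in neo-in. Genes that stayed near 0 stood next in order to genes that rose clearly. Pcdhb8 comes before Pcdhb9, across a gap of 42250 bases, and Pcdhb14 follows Pcdhb13 after 1446 bases. Level was no better guide, with rho of -0.19 and 0.10 between striatal FPKM and the effect. These are descriptions across genes that share libraries and partly share sequence.

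**Figure D3:**
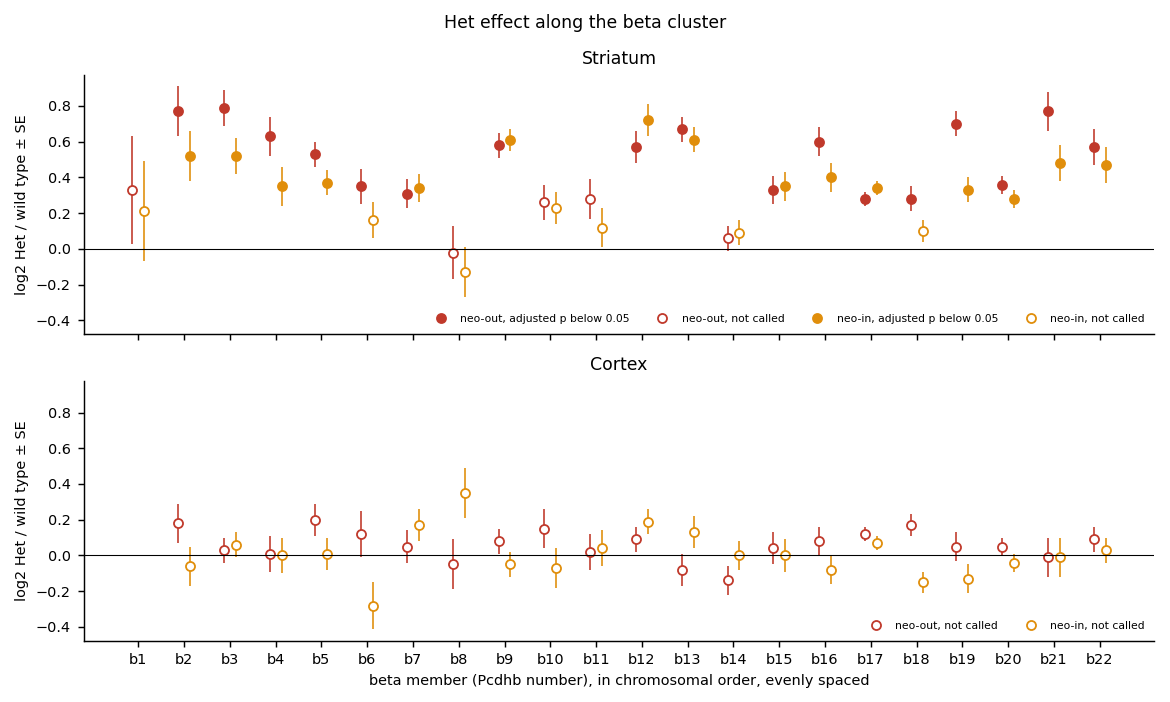
Log2 fold change of Het against wild type ± SE (y axes) for the 22 beta genes in chromosomal order (x axis, evenly spaced), in striatum above and cortex below, with neo-out left of neo-in at each gene. Filled points have an adjusted p below 0.05 (edgeR); striatal values range from -0.02 to 0.79 in neo-out and -0.13 to 0.72 in neo-in, and no cortical point is filled.

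The lines were then compared with each other. The order of the beta genes by size of the striatal Het effect was much alike: across 22 genes the effect in neo-out against that in neo-in, which have no library in common, gave Spearman's rho of 0.79 and Pearson's r of 0.81, beside 0.59 and 0.56 over 17703 genes. The size was not shown to differ. In the test of the difference of the Het effects 0 of 24 members were called (1 at unadjusted p below 0.05, namely Pcdhb19; 0 called by DESeq2 and 0 by limma on FPKM), where 0.00565% of all genes were called. The difference was above 0 for 16 of the 22 beta genes, with a median of 0.12 and a range of -0.15 to 0.37. Among wild-type striata, neo-out against neo-in, 0 members were called (2 at unadjusted p below 0.05; DESeq2 and limma on FPKM 0), where 0.469% of genes were called. Among Het striata 0 were called as well (4 at unadjusted p below 0.05; DESeq2 and limma on FPKM 0), where 0.378% were.

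In cortex the same comparison gave no call. Of 23 members tested, with Pcdhb1 under the count filter, 0 were called in neo-out (3 at unadjusted p below 0.05) and 0 in neo-in (4 at unadjusted p below 0.05) by edgeR, and 0 by DESeq2 and by limma on FPKM. Of all 17444 genes, 0.825% rose and 1.98% fell in neo-out and 0.424% rose and 1.25% fell in neo-in. The median beta change was 0.05 in neo-out and 0 in neo-in. Pcdhb9, for example, had 10.2, 13.5 and 14.6 CPM in neo-out Het cortex, against 10.3, 12 and 14.3 CPM in neo-out WT, and 10.4, 12.3 and 13.3 CPM in neo-in Het, against 10.9, 12.1 and 14.1 CPM in neo-in WT. These ranges lay over each other, unlike those of the same gene in striatum. The summed beta level was 40.0 ± 2.13 FPKM in neo-out Het and 37.9 ± 2.38 FPKM in neo-out WT cortex, and 39.0 ± 1.18 FPKM in neo-in Het and 38.0 ± 1.72 FPKM in neo-in WT. No difference between the lines was called in cortex either, with 0 members called between wild-type groups (4 at unadjusted p below 0.05), between Het groups (3) and in the difference of the Het effects (2), and 0 by DESeq2 and limma on FPKM in each, where 1.79%, 1.30% and 0.00% of all genes were called by edgeR. The wild-type difference of Pcdhb8, neo-out over neo-in, was 0.42 ± 0.14 (edgeR adjusted p = 0.136).

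Whether the Het effect was larger in striatum than in cortex was tested directly, in 1 fit over both tissues and both lines. The Het effect was higher in striatum for 16 of 24 members and lower for 0, where 4.79% of 18295 genes were called higher and 6.23% lower. The 16 were the alpha row and 15 beta genes. The differences of effect were largest for Pcdhb21 (0.63 ± 0.11, edgeR adjusted p = 2.39e-05), Pcdhb13 (0.61 ± 0.08, adjusted p = 2.06e-07), Pcdhb3 (0.61 ± 0.09, adjusted p = 4.7e-07), Pcdhb9 (0.58 ± 0.07, adjusted p = 3.13e-09) and Pcdhb2 (0.58 ± 0.12, adjusted p = 0.000588). For the Pcdha11 row the difference was 0.16 ± 0.04 (edgeR adjusted p = 0.0014), and for the gamma row, Pcdhgc4, it was 0.01 ± 0.03 (adjusted p = 0.889). With the animal as a block, since both tissues came from the same mice, 18 members were called higher. The call of Pcdha11 was lost without replicate 1 of each group (0.12 ± 0.04, edgeR adjusted p = 0.0673), that of Pcdhb6 in 4 of 4 such omissions, and that of Pcdhb15 in 2 of 4.

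The tissues themselves differed in the mix of members. In wild-type mice 13 of 24 members were higher in striatum than in cortex and 9 lower, where 37.5% of all genes were higher and 36.2% lower. Of the members, 54.2% were thus higher, and a difference from the share of all genes was not tested. In Het mice 19 were higher in striatum and 4 lower, where 37.6% and 35.6% of genes were. Because both comparisons and the Het effects draw on the same libraries, these counts are not separate evidence. The levels below are over 15 Het and 16 wild-type striatum libraries and 16 cortex libraries of each genotype, scaled together.

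The largest differences in favour of striatum were in Pcdhb1, Pcdhb6 and Pcdhb18. Pcdhb6 had 3.33, 4.83 and 6.12 CPM in Het striatum, against 1.25, 1.44 and 2.04 CPM in Het cortex, and 3.30, 4.10 and 4.80 CPM in wild-type striatum, against 0.823, 1.66 and 2.54 CPM in wild-type cortex. Striatum and cortex did not overlap for Pcdhb6, with log2 differences of 1.63 ± 0.08 in Het (edgeR adjusted p = 1.83e-25) and 1.30 ± 0.08 in wild type (adjusted p = 1.82e-21). Pcdhb18 gave 0.91 ± 0.04 (edgeR adjusted p = 9.49e-26) and 0.73 ± 0.04 (adjusted p = 6.07e-22). Pcdhb1 gave 2.59 ± 0.33 (edgeR adjusted p = 4.87e-10) and 2.23 ± 0.32 (adjusted p = 2.15e-08), at a level of 0.413 ± 0.195 CPM in Het striatum and 0.0755 ± 0.0750 CPM in Het cortex.

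The largest differences in favour of cortex were in the alpha row, Pcdhb2 and Pcdhb3 in wild type. The alpha row, Pcdha11, had 117, 128 and 135 CPM in Het striatum, against 182, 202 and 217 CPM in Het cortex, and 105, 113 and 118 CPM in wild-type striatum, against 166, 204 and 215 CPM in wild-type cortex. Its log2 difference was -0.66 ± 0.03 in Het (edgeR adjusted p = 5.42e-29) and -0.82 ± 0.03 in wild type (adjusted p = 6.53e-34), with no overlap of the tissues. Pcdhb3 had 5.61, 7.35 and 8.91 CPM in Het striatum, against 6.13, 8.00 and 9.74 CPM in Het cortex, which overlapped, and 3.33, 4.59 and 5.25 CPM in wild-type striatum, against 6.73, 7.61 and 9.44 CPM in wild-type cortex, which did not. The difference was -0.18 ± 0.06 in Het (edgeR adjusted p = 0.00654) and -0.79 ± 0.06 in wild type (adjusted p = 4.27e-17). Pcdhb2 gave -0.23 ± 0.09 (edgeR adjusted p = 0.0149) and -0.82 ± 0.09 (adjusted p = 5.57e-12), and Pcdhb5 -0.32 ± 0.06 (adjusted p = 1.55e-06) and -0.66 ± 0.06 (adjusted p = 1.6e-15). The Het calls of Pcdhb2 and Pcdhb3 were lost in 3 and 2 of the 4 fits that left out 1 replicate number. The gamma row, Pcdhgc4, was nearly even, with 0.07 ± 0.02 and 0.06 ± 0.02.

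**Figure D4:**
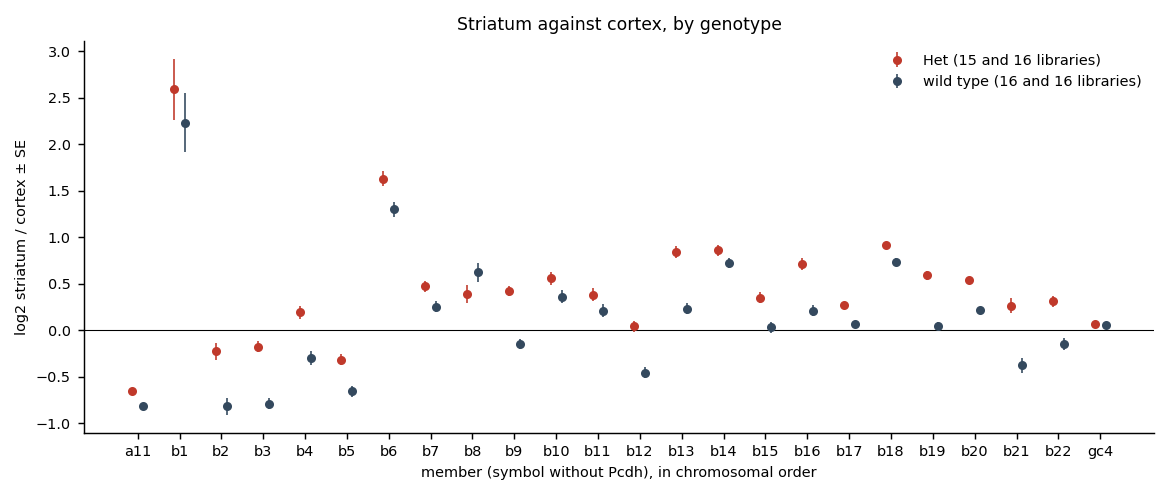
Log2 difference of striatum over cortex ± SE (y axis) for the 24 members in chromosomal order (x axis), with Het left of wild type at each member. The alpha row is below 0 in both genotypes, the gamma row is near 0, and 12 beta genes are called higher and 8 lower in striatum in wild type, against 18 and 3 in Het.

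Beta genes with less RNA in striatum than in cortex tended to have the larger striatal Het effect. To keep the libraries apart, the tissue difference was taken from wild-type mice of one line and the Het effect from the other line. Across the 22 beta genes the neo-out Het effect against the neo-in tissue difference gave Spearman's rho of -0.68 and Pearson's r of -0.73, and the neo-in Het effect against the neo-out tissue difference gave -0.78 and -0.67. Over 17695 genes the same relations gave rho of -0.15 and -0.18. The 8 beta genes lower in neo-in wild-type striatum than in cortex had neo-out Het effects of 0.53 to 0.79 (median 0.61), and the other 14 had -0.02 to 0.70 (median 0.32). The 9 lower in neo-out wild-type striatum had neo-in Het effects of 0.33 to 0.72 (median 0.48), and the other 13 had -0.13 to 0.61 (median 0.23). Without the 4 libraries that stood apart, rho was -0.73 and -0.75, and without Pcdhb1 it was -0.67 and -0.76. For the cortical Het effect rho was -0.27 and -0.28 over 21 genes. These are descriptions across genes, which share libraries, depth and normalization, and no test was made of them.

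**Figure D5:**
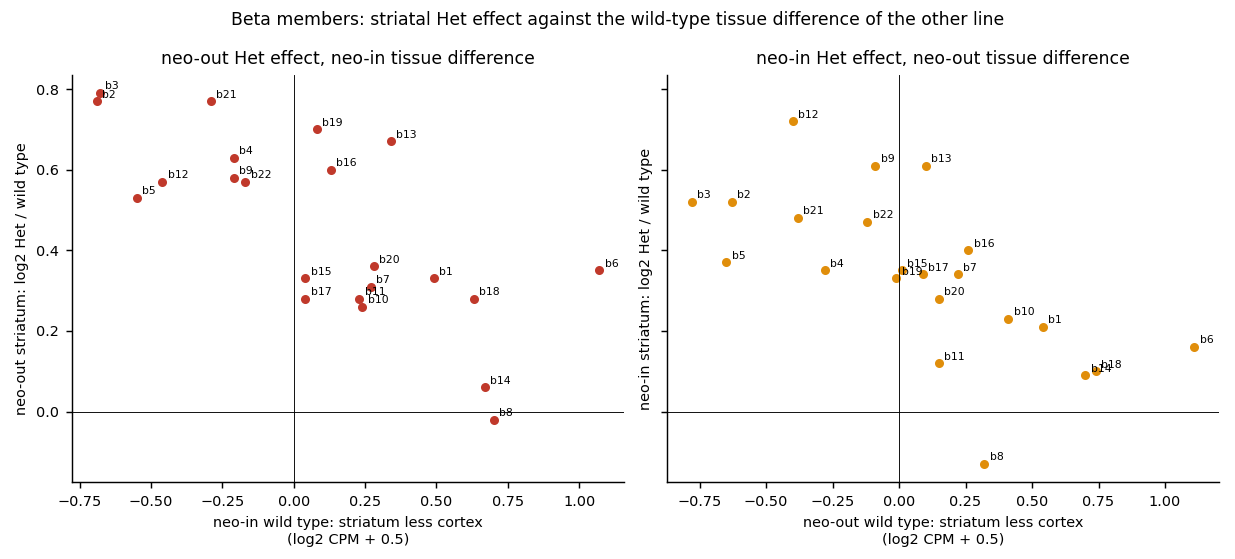
Striatal log2 fold change of Het against wild type (y axis) and the wild-type difference of striatum less cortex in the other line (x axis, log2 of CPM + 0.5) for the 22 beta genes, labelled by number, with the neo-out effect on the left and the neo-in effect on the right. Pcdhb2 and Pcdhb3 lie at the upper left and Pcdhb8, Pcdhb14 and Pcdhb18 at the lower right of both panels; Spearman's rho is -0.68 on the left and -0.78 on the right.

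In liver 7 of the 24 members passed the count filter (Pcdhb9, Pcdhb14, Pcdhb16, Pcdhb17, Pcdhb20, Pcdhb22 and the gamma row), so the other 17 were not tested. In neo-out 0 were called between Het and WT (0.316% of 15208 genes rose and 0.217% fell), and in neo-in 0 (0.427% and 0.112%), by edgeR, DESeq2 and limma on FPKM alike; in unadjusted terms 0 had a p below 0.05 in neo-out and 1 in neo-in. Between wild-type livers, neo-out against neo-in, Pcdhb22 was higher by 1.19 ± 0.31 (edgeR adjusted p = 0.0148), where 4.91% of genes were higher and 4.45% lower. This rests on few reads: Pcdhb22 summed to 79 counts over 8 neo-out WT livers and 37 counts over 8 neo-in WT livers, at 0.232 ± 0.0913 and 0.106 ± 0.0730 CPM. In the same contrast 4 of 5 genes listed as leptomeningeal markers in brain (Dcn, Lum, Col1a1, Col1a2 and Slc6a13, median 0.62) were higher. Which liver cells these genes mark was not examined. Of 5 hepatocyte markers 2 were higher (median 0.28). The neuron, oligodendrocyte, oligodendrocyte precursor, microglia, choroid plexus and immature neuron lists each had 1 gene higher. In each of these lists 0 genes were lower, and their part in the result was not tested. The gamma row had 15.6 ± 2.42 CPM in neo-out WT and 13.4 ± 3.17 CPM in neo-in WT liver and was not called (edgeR adjusted p = 0.157). Between Het livers, neo-out against neo-in, 0 members were called (0 at unadjusted p below 0.05), where 2.60% of genes were, and in the difference of the Het effects 0 were called (1 at unadjusted p below 0.05), where 0.835% were. DESeq2 and limma on FPKM also called 0 in both.

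Genes outside the clusters give context in the same striatal tests. Of 12 non-clustered protocadherins, which are single genes outside the 3 clusters, 5 rose and 0 fell in neo-out, and 4 rose and 0 fell in neo-in (median 0.20 and 0.13), where 8.72% and 8.75% of all genes rose. Among the 12, Pcdh1 and Pcdh12 lie within 500 kb after the gamma cluster, and neither was called. Pcdh20 rose by 0.90 ± 0.07 (edgeR adjusted p = 3.31e-11) and 0.74 ± 0.06 (adjusted p = 7.47e-10), Pcdh10 by 0.36 ± 0.04 and 0.30 ± 0.04, Pcdh11x by 0.50 ± 0.07 and 0.44 ± 0.07, and Pcdh19 by 0.55 ± 0.09 and 0.54 ± 0.09. In cortex 1 of the 12 was called in neo-out (Pcdh10, 0.13 ± 0.03, edgeR adjusted p = 0.0335) and 0 in neo-in, where 0.825% and 0.424% of all genes rose.

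Of 30 regulators of clustered protocadherin promoters (CTCF, cohesin and its loaders, and the machinery of histone H3 lysine 9 and DNA methylation), 6 rose and 0 fell in neo-out and 2 rose and 3 fell in neo-in, with medians of 0.05 and 0.02. Over all genes 8.72% rose and 9.28% fell in neo-out and 8.75% rose and 10.7% fell in neo-in, so the neo-in counts were near the background. In the test of the difference of the Het effects 0 of the 30 were called, so no regulator was shown to differ between the lines. Tet2, an enzyme that oxidises methylated DNA, rose by 0.31 ± 0.06 (edgeR adjusted p = 0.000181) and 0.16 ± 0.05 (adjusted p = 0.0314), and Wiz, a zinc-finger partner of H3 lysine 9 methyltransferases, by 0.30 ± 0.07 (adjusted p = 0.0028) and 0.26 ± 0.07 (adjusted p = 0.00651). Tet1 (0.33 ± 0.07) and Smchd1 (0.19 ± 0.05), which encodes a chromatin protein that helps silence clustered genes, rose in neo-out. Dnmt3a, a DNA methyltransferase, fell by 0.28 ± 0.05 in neo-in (edgeR adjusted p = 0.000101), as did Tet3, by 0.13 ± 0.04 (adjusted p = 0.0225).

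Of 20 genes for proteins that bind or signal with clustered protocadherins, 2 rose and 7 fell in neo-out, and 1 rose and 8 fell in neo-in. Over all genes 8.72% rose and 9.28% fell in neo-out, and 8.75% rose and 10.7% fell in neo-in. The share of the list that fell was thus above that of all genes, and this difference was not tested. The list holds 7 genes for parts of the WAVE complex, which drives actin branching. Among these 5 fell in both lines (Brk1, Cyfip2, Abi1, Abi2 and Nckap1), Cyfip1 rose in neo-out (0.09 ± 0.03, edgeR adjusted p = 0.0327) and was not called in neo-in, and Wasf1 was called in neither. Brk1 fell by 0.26 ± 0.03 (edgeR adjusted p = 1.29e-06) and 0.25 ± 0.03 (adjusted p = 1.42e-06), Cyfip2 by 0.27 ± 0.04 in each line, and Abi1, Abi2 and Nckap1 by 0.18 to 0.24. Ptk2b, a focal adhesion kinase that protocadherins inhibit, fell by 0.22 ± 0.04 and 0.24 ± 0.04, whereas Marcks, an actin regulator at the membrane, rose by 0.31 ± 0.05 and 0.33 ± 0.05.

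Of 27 tested protein-coding neighbours within 500 kb of the clusters, 4 rose and 2 fell in neo-out and 2 rose and 3 fell in neo-in, which is a share close to that of all genes (18.0% and 19.4% called in either direction). Hbegf, a growth factor gene before the alpha cluster, fell by 0.56 ± 0.08 (edgeR adjusted p = 1.2e-05) and 0.59 ± 0.08 (adjusted p = 2.69e-06), and E230025N22Rik by 0.62 ± 0.16 and 0.71 ± 0.15. Hars, a histidyl-tRNA synthetase, rose by 0.13 ± 0.03 and 0.16 ± 0.03, and Diaph1, an actin nucleator, rose by 0.18 ± 0.03 in neo-out.

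Calls and sums of cell type markers in striatum are given beside these results. Over all genes 8.72% rose and 9.28% fell in neo-out, and 8.75% rose and 10.7% fell in neo-in. A single call in a list of 5 or 6 genes is therefore not set apart from that background. Besides the medium spiny neuron markers, the summed level of 5 neural precursor and immature neuron genes (Sox11, Dcx, Sox4, Igfbpl1 and Mki67) was 53.8 to 67.3 CPM in neo-out Het, 43.6 to 57.6 CPM in neo-out WT, 59.5 to 66.1 CPM in neo-in Het and 42.5 to 56.1 CPM in neo-in WT, and 2 of the 5 rose in each line. The 5 general neuron markers summed to a median of 3653 CPM in neo-out Het, 3715 in neo-out WT, 3594 in neo-in Het and 3682 in neo-in WT, and 1 of them rose in each line. Astrocyte marker sums were 1515 to 1625 CPM in neo-out Het, 1629 to 1810 in neo-out WT, 1554 to 1712 in neo-in Het and 1652 to 1802 in neo-in WT, and 3 of 6 fell in neo-out and 1 of 6 in neo-in. Endothelial and mural marker sums did not overlap, at 276 to 300 CPM in neo-out Het against 302 to 343 in neo-out WT, and 268 to 311 CPM in neo-in Het against 312 to 394 in neo-in WT, and 2 and 3 of 5 fell. Sums of medium spiny neuron markers in each line, astrocyte markers in neo-out and immature neuron markers in neo-in did not overlap either. Oligodendrocyte sums were 7267 to 8856 CPM in neo-out Het and 8819 to 10348 in neo-out WT, and 7790 to 9555 CPM in neo-in Het and 7982 to 11153 in neo-in WT. In that list 2 of 6 fell in neo-out, and 2 fell and 1 rose in neo-in. Microglial markers fell for 2 of 5 in neo-in and 0 of 5 in neo-out, with sums of 249 to 293 CPM in neo-in Het and 275 to 335 in neo-in WT. Choroid plexus markers fell for 3 of 5 in neo-out, where sums were 11.7 to 35.1 CPM in Het and 9.13 to 1423 CPM in WT, and for 0 of 5 in neo-in. Of 5 cortical excitatory markers 1 fell in neo-out and 0 in neo-in, while oligodendrocyte precursor and leptomeningeal markers had 0 calls. The choroid plexus and cortical excitatory calls in neo-out include the WT libraries that stood apart for Slc17a7 or Ttr. Interneuron markers showed 0 calls of 6 in each line. The part of these shifts in the rise of the beta genes was not tested.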

How the data were processed

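Messenger RNA of striatum, cortex and liver was sequenced in 95 libraries from 32 mice. The authors deposited expected counts per gene, not scaled to depth, and FPKM per gene, and their deposited sample sheet gives an alignment count per library and CAG repeat numbers. Base calling with CASAVA 1.8.2 and the mm10 genome are named in the submitters' processing notes; which aligner, counting program and annotation were used is not stated. Of the deposited expected counts above 1, 32.2% were not whole, and all were rounded. Genes were named by GENCODE M21, which matched 37607 of 39179 identifiers.

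Each tissue was fitted with edgeR 4.0.16 in R 4.3.3 (filterByExpr, TMM, quasi-likelihood test), with a coefficient for each combination of line, genotype and sex, and p-values were Benjamini-Hochberg adjusted over all genes tested, with a threshold of 0.05. Striatum and cortex were also fitted together. FPKM was tested with limma 3.58.1 on log2(FPKM + 0.1), and DESeq2 1.42.0 was an alternative, beside median-ratio size factors, no low-count filter, a block, a clock-gene covariate and libraries left out. The fits were tested on simulated data. Replicates are separate animals, by the animal identifiers in the labels. These identifiers also pair striatum with cortex: over 31 animals the correlation of deviations between tissues was -0.17 to 0.36 (median 0.10). Depth was 31.02 to 68.36 M expected counts per library. The 141 pairs of libraries within groups differed by more than sampling noise (chi-square per gene at least 4.14). Members with full values were the C-type gene with a row, those with the smallest striatal p, the first and last, highest and lowest of each cluster, and the extremes of striatum against cortex; Pcdhb8, Pcdhb14 and others named were chosen after their values were seen. The members and lists were chosen with earlier results of these data known. A marker gene is not reported here and enters no marker sum or count. No sequences are printed.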

Additional observations from a re-analysis of the deposited data

Results flagged for a closer look

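Single libraries lay far from the rest of their group in 6 of 188 groups of members and libraries examined, and chance alone marks about 1 group in 20. In striatum, Pcdhb12 was at 6.83 CPM in neo-in Het female replicate 3, below the others at 9.04 to 10.7 CPM, and at 11.4 CPM in neo-out Het female replicate 1, above the others at 9.13 to 9.94 CPM. Pcdhb18 was at 7.41 CPM in neo-out WT male replicate 2, below the others at 9.07 to 10.5 CPM, and this library is among the 4 that stood apart, with Slc17a7 at 109 CPM. In cortex, Pcdhb8 was at 3.22 CPM in neo-in Het female replicate 1 (others 1.57 to 2.34 CPM). Pcdhb21 was at 5.29 CPM in neo-in Het female replicate 2 (others 3.34 to 4.21 CPM), and Pcdhb10 at 4.57 CPM in neo-in WT female replicate 3 (others 3.12 to 3.77 CPM).

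The Het effect differed between striatum and cortex, by the test of the difference itself in edgeR, for 16 members. On the log2 scale the effect in striatum less that in cortex was 0.63 for Pcdhb21, 0.61 for Pcdhb3 and Pcdhb13, 0.58 for Pcdhb2 and Pcdhb9, and 0.56 for Pcdhb19. It was 0.50 for Pcdhb12 and Pcdhb16, 0.49 for Pcdhb4 and 0.45 for Pcdhb22. It was 0.34 for Pcdhb5, 0.33 for Pcdhb6, 0.32 for Pcdhb15, 0.31 for Pcdhb20, 0.21 for Pcdhb17 and 0.16 for Pcdha11.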

How the results depend on the processing

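No member that was called changed sign under any alternative run, and in every comparison the count of members called stayed within 1.5 times under other size factors, DESeq2, no low-count filter, FPKM with limma, a block, the clock covariate (not run in liver or in the joint fit) and without the 4 striatum libraries that stood apart. In Het against WT striatum these gave 13 to 20 calls in neo-out and 16 to 17 in neo-in. Leaving out 1 library at a time gave 17 to 20 and 15 to 17, and leaving out 1 replicate number in the joint fit gave 14 to 15 calls for the Het effect between tissues, 20 to 22 for the tissues in wild type and 21 to 22 in Het. In liver, wild-type neo-out against neo-in gave 1 to 2 calls, 2 without neo-in WT male replicate 3; every other comparison stayed at 0. In wild type the tissue differences of Pcdhb17 (0.05 to 0.08) and Pcdhb22 (-0.15 to -0.08) were lost in several of these fits. The cause was not tested. Members near 0 could change sign with the scale: in neo-out, Pcdhb8 averaged 1.26 FPKM in Het and 1.23 FPKM in WT striatum, against a log2 change of -0.02 on counts. Over all genes limma on FPKM called 2426 higher and 1276 lower in neo-out and 2834 and 1335 in neo-in striatum, against 1543 and 1643, and 1549 and 1888, by edgeR. Replicate numbers did not pair libraries within a tissue (5 of 15 correlations over 0.1 in striatum, 2 of 16 in cortex and 6 of 16 in liver); with them as a block 20 members rose in neo-out and 16 in neo-in striatum. Low counts limit Pcdhb1 and all liver values.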
